A study of Mus musculus with 4 samples.

Results

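The genes described here are 9 genes of the mitochondrial machinery that assembles iron-sulfur clusters: *Nfu1*, *Iscu*, *Nfs1*, *Lyrm4*, *Isca1*, *Isca2*, *Iba57*, *Glrx5* and *Bola3*. They were chosen by name, because *Nfu1* encodes the mitochondrial protein that the study followed under GC7, an inhibitor of deoxyhypusine synthase (DHPS), and the other genes act around it. All 9 were among the 28585 genes listed in every library. The libraries are bulk RNA sequencing of PMN-MDSCs, the polymorphonuclear kind of myeloid-derived suppressor cells, which are immature neutrophil-like cells that restrain T cells. They were taken from the spleens of mice on postnatal day 7, with 300000 cells per sample. There were 2 libraries from *Dhps*ΔLysm pups (labelled Dhps cko), which are *Dhps* fl/fl Lysm cre, and 2 from *Dhps* fl/fl pups (labelled Dhps flox). Both groups were on a C57BL/6J background, both carried the floxed *Dhps* allele, and the labels give no treatment. The Cre recombinase is made from the *Lysm* (*Lyz2*) locus, which is active in neutrophils, monocytes and macrophages alike, so the deletion is not limited to PMN-MDSCs. The cells were sorted as CD11b+, Ly6C low or negative and Ly6G+. The study states that it used mice of both sexes. How many pups went into a library, and of which sex, is not given in the sources used here. The p-values below thus measure only the spread between these libraries. In bulk samples, fewer cells with a transcript and less transcript per cell cannot be told apart.

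Iron-sulfur clusters are cofactors of iron and sulfide that carry electrons in the respiratory chain and take part in catalysis in aconitase and lipoyl synthase. In mitochondria, the cysteine desulfurase NFS1, stabilised by LYRM4, supplies sulfide to the scaffold ISCU, on which the first cluster is built. GLRX5 carries that cluster onward, ISCA1, ISCA2 and IBA57 convert it to the larger form, and NFU1 and BOLA3 help to hand the larger cluster to lipoyl synthase and to respiratory complexes. DHPS makes deoxyhypusine on the translation factor eIF5A, which another enzyme turns into hypusine, and eIF5A with hypusine helps the ribosome through difficult stretches such as consecutive prolines. RNA sequencing measures transcripts only, and the level or translation of the proteins was not analysed here.

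The coding sequences were searched for runs of proline codons, which have the form CCN on the coding strand, because the study names a stretch of prolines among its reasons for following NFU1. In the longest complete coding sequence of each gene in GENCODE M21 (GRCm38), *Nfu1* was the 1 gene of the 9 with a run of at least 3 CCN codons. Its run held 4 codons, numbers 155 to 158 of 256 counted from the start codon. It lies at chr6:87020818-87020829 on the plus strand, in exon 6 of the 9 exons of the transcript ENSMUST00000120240. The stretch from codon 149 to codon 164 is shown, 5′ to 3′, with the CCN run in capitals; its first 43 bases lie in exon 6 (chr6:87020800-87020842) and its last 5 in exon 7 (chr6:87023128-87023132).
*Nfu1* codons 149 to 164: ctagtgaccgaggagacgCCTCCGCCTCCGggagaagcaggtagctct
Among 21538 protein-coding genes with a complete coding sequence, 20.0% had a run of at least 3 CCN codons and 6.38% a run of at least 4. Of the other members, *Iscu* and *Iba57* had at most 2 CCN codons in a row and the remaining 6 had no adjacent pair, although *Iba57* held the most CCN codons in total, 29 of 358. A run of such codons is a description of the sequence and says nothing of how fast it is translated in these cells.

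**Figure D1:**
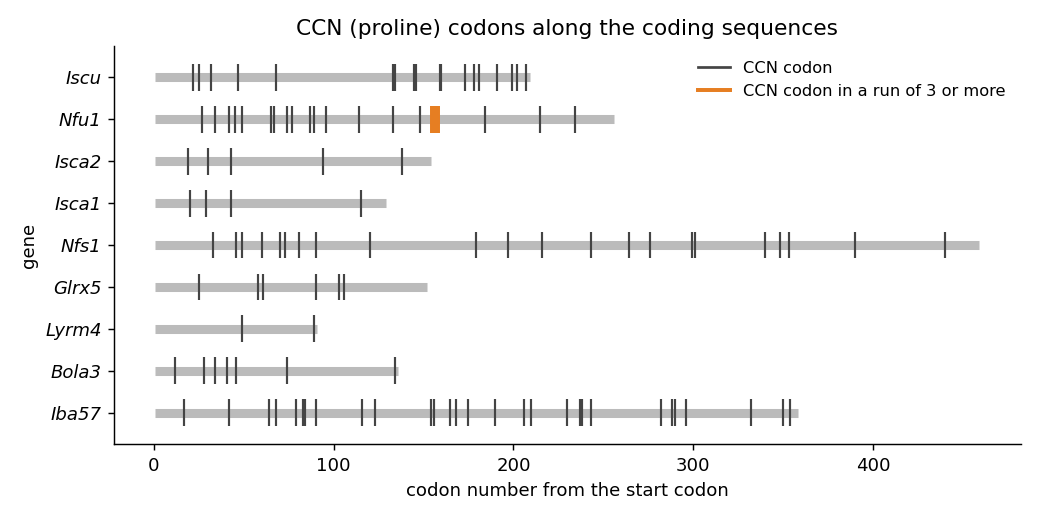
CCN codons along the longest complete coding sequence of each of the 9 genes. The horizontal axis is the codon number from the start codon, grey bars span the coding sequence, dark ticks are CCN codons outside longer runs and orange ticks those in a run of at least 3; the merged orange ticks at codons 155 to 158 of *Nfu1* are the only ones among these 9 genes.

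The deposited values are FPKM, fragments divided by the length of the transcript and by all mapped fragments, so levels of different genes are compared per length. The FPKM of a library summed to between 304281.1 and 319286.4, and the spacing of low values gave approximate depths of 29900000 to 32000000 mapped fragments. The targeted gene *Dhps* (ENSMUSG00000060038) was at 2.38 and 2.59 FPKM in *Dhps*ΔLysm, against 3.57 and 3.11 FPKM in *Dhps* fl/fl. Both *Dhps*ΔLysm values were thus below both controls, with a mean at 74.4% of the *Dhps* fl/fl mean, but the difference did not pass the test described below (log2 fold change -0.41, limma adjusted p = 0.63). All 12 neutrophil markers of a fixed list were detected and summed to between 73002.07 and 79945.24 FPKM, led by *Ngp* and *S100a9*. Erythroid markers, of interest because red cell precursors need many iron-sulfur and heme enzymes, summed to 736.57 and 882.48 FPKM in *Dhps*ΔLysm and to 609.52 and 918.19 FPKM in *Dhps* fl/fl, so the genotypes overlapped. Of the other lists, B cell markers summed to 64.91 and 67.69 FPKM in *Dhps*ΔLysm, against 41.47 and 50.82 FPKM in *Dhps* fl/fl. T cell markers summed to 18.47 and 14.98 FPKM, against 11.86 and 8.01 FPKM. Monocyte-macrophage markers also had higher sums in both *Dhps*ΔLysm libraries, and platelet markers stayed at no more than 4.43 FPKM in sum. The 4 Y-linked genes had lower sums in both, 7.07 and 8.07 FPKM against 17.64 and 15.62 FPKM. Median log2 fold changes were 0.58 for B cell, 0.67 for T cell, 0.26 for monocyte-macrophage and -1.08 for Y-linked genes. The part of these cell types and of sex in the values below was not tested.

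The 9 genes are given here in 3 ranges of level, drawn for description only. *Iscu*, *Nfu1* and *Isca2* had means over the 4 libraries of 12.1, 10.6 and 9.53 FPKM, at percentiles 82.0, 80.0 and 78.1 of the 17948 genes tested. *Isca1* and *Nfs1* followed at 3.76 and 3.51 FPKM, percentiles 62.0 and 60.9. The rest were low, with *Glrx5* at 1.25 FPKM, *Lyrm4* at 0.59 FPKM, *Bola3* at 0.48 FPKM and *Iba57* at 0.46 FPKM, between percentiles 27.7 and 44.2. Neighbours in this order overlapped across the 4 libraries for *Nfu1* and *Isca2*, for *Isca1* and *Nfs1*, and among *Lyrm4*, *Bola3* and *Iba57*. *Iscu* and *Glrx5* overlapped no neighbour. The low level of *Lyrm4* beside *Nfs1*, whose proteins work as a pair, is a difference between transcripts per length and not between proteins.

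**Figure D2:**
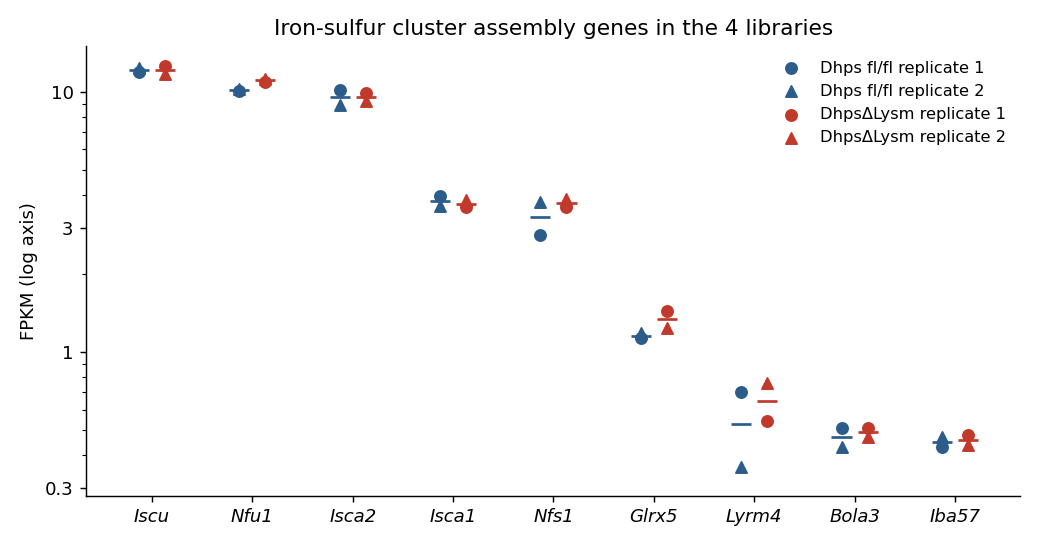
FPKM (log axis) of the 9 genes in the 4 libraries, ordered by mean level; red marks *Dhps*ΔLysm, blue *Dhps* fl/fl, circles replicate 1, triangles replicate 2 and short lines the group means. The 2 genotypes overlap for every gene except *Nfu1* and *Glrx5*.

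Which of these transcripts differed between the genotypes was asked with limma on log2(FPKM + 0.1) over the 17948 genes averaging 0.1 FPKM or more, a filter that all 9 members passed. Fold changes on this scale understate those of low genes. *Nfu1* (ENSMUSG00000029993; GRCm38 chromosome 6, 87009236 to 87028461, plus strand) was at 10.92 and 11.22 FPKM in the first and second *Dhps*ΔLysm library, against 10.09 and 10.24 FPKM in the corresponding *Dhps* fl/fl libraries, an order kept for every gene below. Both *Dhps*ΔLysm libraries were thus slightly above both controls. The means were 11.07 ± 0.21 and 10.2 ± 0.11 FPKM (SD, n = 2 each). The log2 fold change was 0.12 (standard error, SE, 0.069; limma adjusted p = 0.78 by the Benjamini-Hochberg method), and the test was not passed. The 95% interval of the fold, not corrected for the number of genes, ran from 0.96 to 1.23. Across the 15 alternatives the log2 fold change stayed between 0.086 and 0.14. At the estimated depths and with the lengths of its protein-coding transcripts, 777 to 1195 bases, *Nfu1* rested on about 238 to 418 fragments per library. Counting error alone then gives a standard error of 0.073 to 0.09 on the log2 scale, about as large as the one fitted.

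A known copy of *Nfu1* was close to 0 in all libraries. The processed pseudogene *Gm7859* on chromosome 15 matches 771 bases of a *Nfu1* transcript at 95.7% identity and was at 0.01 to 0.07 FPKM in the 4 libraries. No other gene shares exon bases with *Nfu1* in the annotation. The genes with the most similar profile, by the root-mean-square difference of centred log2 values over the 4 libraries, were *Psmb6*, *Sharpin*, *Zmym5*, *Sowahc* and *Rsrp1*, with differences from 0.0056 to 0.0094. Such likeness is common at so small a change: 849 of 10628 genes averaging 1 FPKM or more lay within 0.05 of *Nfu1*.

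The desulfurase and its scaffold showed no difference that passed the test. *Iscu* (ENSMUSG00000025825; chromosome 5, 113772748 to 113778288), the scaffold gene and the most abundant member, was at 12.61 and 11.68 FPKM in *Dhps*ΔLysm, with controls at 11.86 and 12.34 FPKM. The *Dhps*ΔLysm libraries lay on either side of the controls, and the log2 fold change was 0.0045 (SE 0.076, limma adjusted p = 0.997). The interval of the fold ran from 0.88 to 1.15. The pseudogene *Gm16437* on chromosome 19, which matches 504 bases of *Iscu* at 98.4% identity, was at 2.79 and 3.32 FPKM in *Dhps*ΔLysm, against 0.82 and 2.1 FPKM in *Dhps* fl/fl. A further pseudogene, *Gm2594* on chromosome 9, matches 274 bases of *Iscu* at 90.1% identity and was not analysed here. Adding the share of *Gm16437* to *Iscu* moved the log2 fold change of *Iscu* to 0.069 (adjusted p = 0.89 from limma).

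*Nfs1* (ENSMUSG00000027618; chromosome 2, 156123639 to 156144186, minus strand), the cysteine desulfurase gene, was at 3.60 and 3.88 FPKM in *Dhps*ΔLysm, with controls at 2.81 and 3.76 FPKM. Only *Dhps* fl/fl replicate 1 stood apart, and it was the lowest. The log2 fold change was 0.20 (SE 0.17, limma adjusted p = 0.84), and leaving out *Dhps* fl/fl replicate 1 gave -0.0085. The gene model *Gm28036*, on the same strand, shares 256 exon bases with *Nfs1*. Its level was 4.31 FPKM in the library where *Nfs1* was lowest, 0.93 FPKM in *Dhps* fl/fl replicate 2, and 2.08 and 1.84 FPKM in *Dhps*ΔLysm. The part of this shared sequence in the low value was not tested, and adding the share of *Gm28036* left a log2 fold change of 0.14. *Romo1*, on the opposite strand, overlaps 148 exon bases of *Nfs1* and was at 2.96 to 4.77 FPKM.

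*Lyrm4* (ENSMUSG00000046573; chromosome 13, 35978395 to 36117526, minus strand), which encodes the small partner of NFS1, was at 0.54 and 0.76 FPKM in *Dhps*ΔLysm, against 0.70 and 0.36 FPKM in *Dhps* fl/fl. The genotypes overlapped, and the *Dhps* fl/fl libraries differed from each other by more than the group means did. Its log2 fold change of 0.29 was the largest of the 9 and the least certain (SE 0.37, limma adjusted p = 0.91). Leaving out *Dhps* fl/fl replicate 2 gave -0.11, and leaving out replicate 1 of that group gave 0.69. About 22 to 49 fragments per library lay behind these values. The opposite-strand gene *Fars2* overlaps 115 exon bases of *Lyrm4* and was at 0.58 to 0.81 FPKM.

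*Glrx5* (ENSMUSG00000021102; chromosome 12, 105032688 to 105042906), the glutaredoxin that carries the first cluster away from the scaffold, was at 1.44 and 1.24 FPKM in *Dhps*ΔLysm, with controls at 1.13 and 1.18 FPKM. Both *Dhps*ΔLysm libraries were higher, the second by little. The log2 fold change was 0.20 (SE 0.17, limma adjusted p = 0.85), or 0.095 when *Dhps*ΔLysm replicate 1 was left out.

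The genes that act in forming the larger cluster had group means close to each other. *Isca1* (ENSMUSG00000044792; chromosome 13, 59755409 to 59769810, minus strand) was at 3.60 and 3.83 FPKM in *Dhps*ΔLysm, against 3.97 and 3.63 FPKM in *Dhps* fl/fl. *Isca2* (ENSMUSG00000021241; chromosome 12, 84773251 to 84775088), which encodes its partner, was at 9.90 and 9.18 FPKM in *Dhps*ΔLysm, with controls at 10.14 and 8.90 FPKM. For each, the spread within a genotype was wider than the difference between the group means. The log2 fold change was -0.031 for *Isca1* (SE 0.11, limma adjusted p = 0.97) and 0.0050 for *Isca2* (SE 0.098, limma adjusted p = 0.997). The intervals of the fold ran from 0.81 to 1.19 for *Isca1* and from 0.84 to 1.19 for *Isca2*.

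*Isca1* has a near copy on the same chromosome. The protein-coding model *AK157302* matches 1914 bases of it at 99.0% identity, so reads could be split between them. Its levels were 0.61 and 0.65 FPKM in *Dhps*ΔLysm, against 0.95 and 0.44 FPKM in *Dhps* fl/fl, and with its share added the log2 fold change of *Isca1* was -0.042. The antisense gene *Etohd2* overlaps 314 exon bases of *Isca1* and was at 2.02 to 2.71 FPKM. *Gm49354*, which shares 115 exon bases on the same strand, was listed at 0 in all 4 libraries.

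*Iba57* (ENSMUSG00000049287; chromosome 11, 59155369 to 59163739, minus strand), whose protein works with ISCA1 and ISCA2, was at 0.48 and 0.44 FPKM in *Dhps*ΔLysm, with controls at 0.43 and 0.47 FPKM. *Bola3* (ENSMUSG00000045160; chromosome 6, 83349147 to 83360136), whose protein acts beside NFU1 in handing over the larger cluster, was at 0.51 and 0.47 FPKM in *Dhps*ΔLysm, against 0.51 and 0.43 FPKM in *Dhps* fl/fl. In both genes the genotypes overlapped. The log2 fold changes were 0.026 for *Iba57* (SE 0.26, limma adjusted p = 0.99) and 0.052 for *Bola3* (SE 0.26, limma adjusted p = 0.98). Their fragments depend on which transcript is used, with about 9 to 62 per library for *Iba57* and 7 to 38 for *Bola3*. The fold intervals were wide, from 0.65 to 1.61 for *Iba57* and from 0.66 to 1.64 for *Bola3*, before any correction for the number of genes tested. The *Bola3* pseudogenes *Gm9506* and *Gm16276* reached at most 0.1 and 0.22 FPKM.

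**Figure D3:**
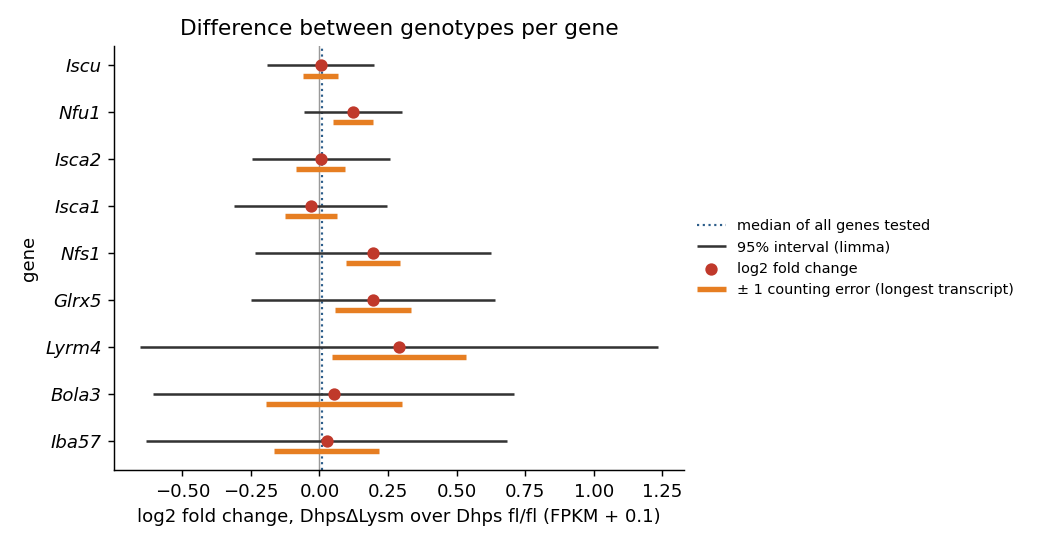
Log2 fold change (*Dhps*ΔLysm over *Dhps* fl/fl) of each of the 9 genes (red points) with its 95% interval from limma (black lines); orange bars span 1 counting standard error on either side, taking the longest protein-coding transcript, and the dotted line is the median of all genes tested, 0.01. Every interval includes 0, and those of *Nfu1* and *Iscu* are the narrowest.

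Set side by side, 0 of the 9 genes had an adjusted p under 0.05 from limma, where 0.00557% of all genes tested did, which is 1 gene. With an unadjusted p under 0.05 there were again 0 of 9, against 7.0% of all genes tested (4.72% higher and 2.28% lower). *Nfu1* and *Glrx5* had both *Dhps*ΔLysm values above both *Dhps* fl/fl values, 2 of 9, beside 20.0% of all genes tested, and 0 of 9 were lower in this way, beside 16.0% (36.0% in either direction). The log2 fold change was above 0 for 8 of the 9 genes and for 52.2% of all genes tested, but for 5 of 9 without *Dhps* fl/fl replicate 2 and 6 of 9 without *Dhps* fl/fl replicate 1 or *Dhps*ΔLysm replicate 1. The median log2 fold change of the 9 was 0.052, beside 0.01 over all genes tested. It was 0.012 without *Dhps*ΔLysm replicate 1, 0.033 without *Dhps* fl/fl replicate 2 and 0.098 without *Dhps* fl/fl replicate 1. Under the 4 scalings both medians were lower, between -0.020 and -0.0013 for all genes and between 0.026 and 0.042 for the members, of which 5 to 7 of 9 then lay above 0. Among genes that averaged 1 FPKM or more, the median log2 fold change went from 0.097 in the quintile with the shortest annotated transcripts to -0.062 in the quintile with the longest. Of the 6 members at that level, *Iscu*, *Nfs1* and *Isca2* fell in the second quintile by length (median 0.059), *Nfu1* and *Glrx5* in the third (0.023) and *Isca1* in the fourth (-0.015).

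The partners of these proteins in the same pathway were read from 4 lists, in which 0 genes had an adjusted p under 0.05 from limma (the smallest was 0.57). Of 12 tested genes among 14 that act elsewhere in mitochondrial assembly, 8 had a log2 fold change above 0 and 4 below, with a median of 0.021. That median was 0.0019 without *Dhps* fl/fl replicate 1 and 0.054 without *Dhps* fl/fl replicate 2 or *Dhps*ΔLysm replicate 2, and -0.0094 with libraries rescaled to the same sum, where the median of all genes was -0.020. *Hscb*, a co-chaperone that helps to release the cluster from ISCU, was the 1 gene of these 12 with an unadjusted p under 0.05, a threshold that 7.0% of all genes tested passed. Its levels were 1.94 and 2.12 FPKM in *Dhps*ΔLysm, with controls at 1.58 and 1.28 FPKM, so the genotypes did not overlap. Its log2 fold change was 0.48 (SE 0.17, limma adjusted p = 0.68). The chaperone with which it works, *Hspa9*, was at 8 and 8.33 FPKM in *Dhps*ΔLysm, against 7.70 and 8.47 FPKM in *Dhps* fl/fl. The most abundant gene of the list was *Slc25a37*, the mitochondrial iron importer mitoferrin, at 29.64 to 30.5 FPKM in the 4 libraries with a log2 fold change of 0.0047. *Nubpl* and *Fdx2* were below the filter.

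The cytosolic branch matures clusters outside mitochondria. The list read for it also held *Cisd1*, *Cisd2* and *Cisd3*, whose proteins carry iron-sulfur clusters and are not factors of that branch. Their log2 fold changes were 0.076, 0.12 and 0.78, and the counts and medians of this list include them. *Cisd3* was low, at 0 to 0.72 FPKM. Of 15 gene models tested, among 16 listed for 14 symbols because *Ndor1* is used for 3, 9 had a log2 fold change above 0 and 6 below. The median was 0.069, but -0.037 without *Dhps* fl/fl replicate 2, 0.035 without *Dhps*ΔLysm replicate 2 and 0.041 without *Dhps* fl/fl replicate 1, and 0 had an unadjusted p under 0.05. Its most abundant gene, *Ciao2a*, a targeting factor of that branch, was at 36.43 and 34.91 FPKM in *Dhps*ΔLysm, with controls at 36.6 and 34.81 FPKM.

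Among 13 genes for mitochondrial proteins that carry iron-sulfur clusters, 9 were above 0 and 4 below, with a median of 0.063. This median turned to -0.015 without *Dhps*ΔLysm replicate 1 and was 0.032 without *Dhps* fl/fl replicate 2, and 0.014 after centring by transcript length. Of these, 2 had an unadjusted p under 0.05, both of respiratory complex I and both higher in each *Dhps*ΔLysm library, beside 4.72% of all genes tested that were higher at this threshold. *Ndufv1* was at 10.64 and 10.67 FPKM in *Dhps*ΔLysm, against 8.56 and 9.06 FPKM in *Dhps* fl/fl (log2 fold change 0.27, SE 0.074, limma adjusted p = 0.57). *Ndufs7* was at 8.46 and 7.75 FPKM in *Dhps*ΔLysm, with controls at 6.95 and 6.11 FPKM (log2 fold change 0.31, SE 0.10, limma adjusted p = 0.65). Neither passed the adjusted threshold. The other complex I genes of this list, *Ndufv2*, *Ndufs8* and *Ndufs1*, had log2 fold changes of 0.17, 0.063 and -0.049. *Lias*, which encodes the lipoyl synthase that receives clusters through NFU1, was at 4.06 and 4.52 FPKM in *Dhps*ΔLysm, against 4.98 and 4.51 FPKM in *Dhps* fl/fl, and *Sdhb*, the cluster subunit of complex II, was at 15.55 and 16.31 FPKM against 13.82 and 15.33 FPKM. The gene of this list with the highest mean over the 4 libraries was *Mocs1*, which acts in making the molybdenum cofactor, at 23.63 to 26.65 FPKM, a range that overlapped that of *Uqcrfs1*, a subunit of complex III, at 20.46 to 24.26 FPKM.

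Of 14 genes for iron uptake, storage, export and sensing, 9 were above 0 and 5 below, with a median of 0.03. It was 0.051 to 0.057 with any 1 library left out, and -0.0025 or -0.0063 with rescaled or quantile-normalised libraries, where the median of all genes was -0.020 or -0.0096. An unadjusted p under 0.05 was found for 3, *Ftl1*, *Hmox1* and *Aco1*, all higher in both *Dhps*ΔLysm libraries, beside 4.72% of all genes tested that were higher at this threshold. *Ftl1*, the ferritin light chain and the most abundant of the list, was at 381.23 and 371.54 FPKM in *Dhps*ΔLysm, with controls at 335.93 and 307.99 FPKM (log2 fold change 0.23, SE 0.066, limma adjusted p = 0.60). *Hmox1*, heme oxygenase, was at 70 and 73.96 FPKM against 61.78 and 64.55 FPKM. *Aco1*, which encodes the cytosolic aconitase that binds iron-responsive elements when it lacks its cluster, was at 3.34 and 3.27 FPKM against 2.56 and 2.61 FPKM (log2 fold change 0.34, SE 0.11, limma adjusted p = 0.63). *Tfrc*, the transferrin receptor, was at 13.14 to 13.29 FPKM in the 4 libraries. Macrophages that recycle iron also express ferritin and *Hmox1*. *Slc40a1*, the iron exporter of this list, was at 51.02 and 53.65 FPKM in *Dhps*ΔLysm, against 52.19 and 50.18 FPKM in *Dhps* fl/fl. All 10 monocyte-macrophage markers were detected and had a log2 fold change above 0, 6 of them with an unadjusted p under 0.05. They summed to 396.89 and 391.44 FPKM in *Dhps*ΔLysm and to 324.59 and 324.11 FPKM in *Dhps* fl/fl. *Ly6c2* was the largest part, at 192.22 and 183.75 FPKM against 157.95 and 160.82 FPKM. For 8 of the 10, both *Dhps*ΔLysm values were above both controls, beside 20.0% of all genes tested. The genotypes overlapped for *Cd5l* (7.64 and 8.61 against 7.92 and 7 FPKM) and *Vcam1* (18.41 and 20.5 against 19.31 and 16.04 FPKM). The part of these markers in the iron genes was not tested.

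**Figure D4:**
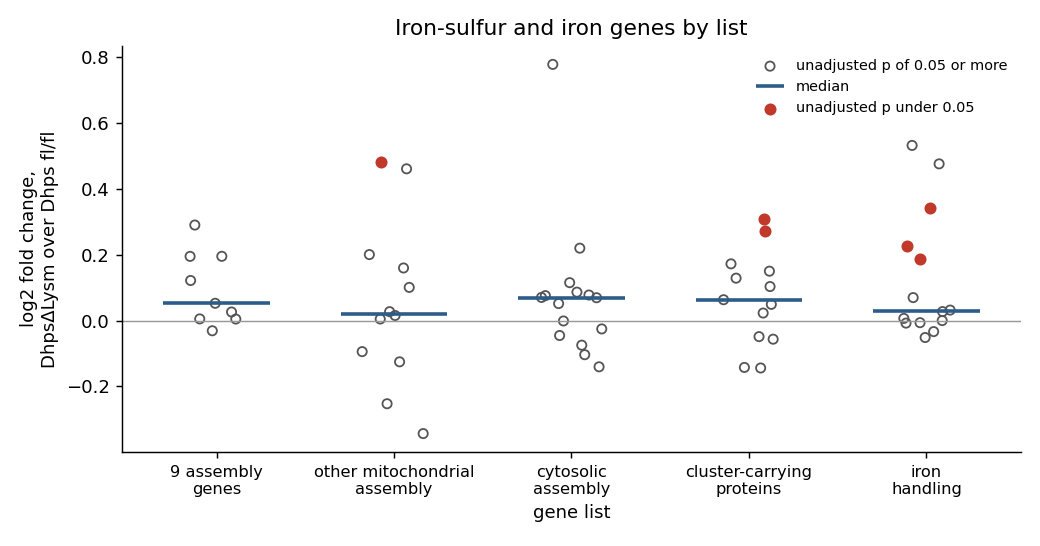
Log2 fold change (*Dhps*ΔLysm over *Dhps* fl/fl) of every tested gene in the 9 assembly genes and 4 related lists. Filled red points have an unadjusted p under 0.05, open points do not, and blue lines are list medians, which lie between 0.021 and 0.069; no point among the 9 assembly genes is red.

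The alternatives moved the members by different amounts. *Nfu1* and *Glrx5* kept a positive log2 fold change under all 15 alternatives, *Glrx5* between 0.095 and 0.30. *Lyrm4* ranged from -0.11 to 0.69 and *Nfs1* from -0.0085 to 0.40, in each case between 2 fits that left out a *Dhps* fl/fl library. Under all alternatives, 0 of the 9 genes had an unadjusted p under 0.05, and the lowest such p was 0.051, for *Nfs1* without *Dhps* fl/fl replicate 2.

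**Figure D5:**
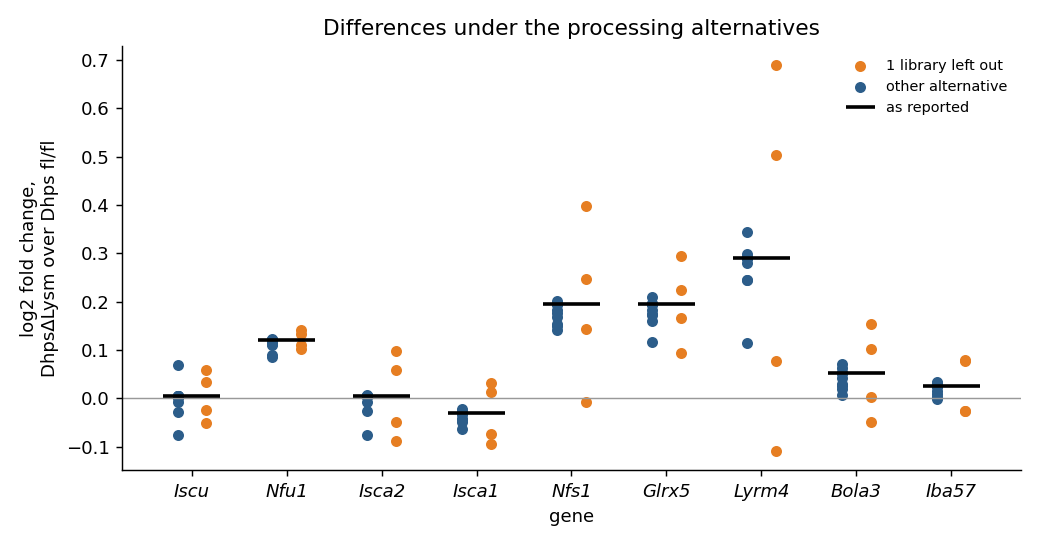
Log2 fold change (*Dhps*ΔLysm over *Dhps* fl/fl) of each of the 9 genes as reported (black lines), with 1 library left out (orange points) and under the other alternatives (blue points). The points of *Nfu1* lie closest together, between 0.086 and 0.14, and those of *Lyrm4* are spread most widely, from -0.11 to 0.69.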

How the data were processed

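Bulk RNA sequencing of PMN-MDSCs gave 4 libraries, 2 per genotype. Per the study's methods and the labels, the authors trimmed reads with Cutadapt (v1.9), aligned them with HISAT2 (v2.2.1; mm10) and calculated the deposited FPKM per gene with StringTie (v2.1.6) and ballgown; the annotation and the use of strand are not given in the sources used here. No scaling between libraries is stated, so a library in which a few genes take more reads shows lower FPKM for all others.

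The 2 genotypes were set against each other by limma (version 3.58.1, R 4.3.3; two-sided moderated test, trended prior variance, no replicate block) on log2(FPKM + 0.1) for genes averaging 0.1 FPKM or more, with Benjamini-Hochberg adjustment over all genes and a threshold of 0.05. An exact permutation test of 2 against 2 could not pass that threshold. Depth was estimated from the spacing of low FPKM of short single-exon genes, where 38.9% to 41.8% of values lay within 0.15 of a whole fragment and chance gives 30%, so whole reads were not recovered and counts are approximate. Intervals and counting errors cover these libraries only.

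Coordinates, lengths and coding sequences came from GENCODE M21 (GRCm38), which held 28511 of the gene identifiers and lacked 74. Transcripts were compared with BLAST, keeping matches of at least 250 bases at 90% identity. The power of the limma fit at changes as small as those reported here was not tested. The accuracy of the estimated fragment counts was not tested either. All 9 members and *Dhps* were named, with genes of each pathway list that had an unadjusted p under 0.05, the most abundant gene of each list, the 5 profiles nearest to *Nfu1*, and genes that overlap or copy a member. *Hspa9*, *Lias*, *Sdhb*, *Tfrc*, *Uqcrfs1*, *Slc40a1*, *Cd5l*, *Vcam1*, *Ly6c2*, *Ndufv2*, *Ndufs8*, *Ndufs1*, *Cisd1*, *Cisd2* and *Cisd3* were named after their values were seen. The members and lists were chosen with earlier results of these data known. The alternatives were 2 other pseudocounts, 2 other filters, 4 scalings, no trend, a block for the replicate number, each library left out in turn and, chosen after seeing the data, adding near-identical copies.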

Additional observations from a re-analysis of the deposited data

How the results depend on the processing

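No member had an adjusted p under 0.05 from limma under any alternative, and the smallest was 0.54. The 1 gene that differed over the whole table became 0 with a pseudocount of 0.01, with no filter and with the replicate block, 2 after rescaling to equal sums or quantile normalisation, 4 among genes of at least 1 FPKM, between 0 and 0 with a library left out, and 1257 at an unadjusted p. The replicate block, where the numbers are not known to pair the pups, changed no call among the members. Same-numbered libraries did not deviate together (r = -0.057 across 10629 genes). The members' median log2 fold change was 0.020 with a pseudocount of 1 and 0.012 to 0.098 with a library left out. The sign turned for *Iscu* (-0.027 rescaled to equal sums, -0.0073 with size factors, -1.88e-05 with quantiles, -0.076 centred by length), for *Isca2* (-0.027, -0.0069 and -0.075 under the first, second and last of these) and for *Iba57* (-0.00038 rescaled to equal sums). With a library left out, the range was -0.050 to 0.059 for *Iscu*, -0.088 to 0.098 for *Isca2*, -0.026 to 0.079 for *Iba57*, -0.094 to 0.032 for *Isca1*, -0.0085 to 0.40 for *Nfs1*, -0.11 to 0.69 for *Lyrm4* and -0.049 to 0.15 for *Bola3*. Rescaled to equal sums, the list medians were -0.0094 (other mitochondrial assembly), 0.032 (cluster-carrying proteins) and -0.0025 (iron handling). The iron median was 0.018 with size factors and -0.0063 with quantiles. The cytosolic median was 0.069 as reported, 0.040 rescaled, 0.042 with quantiles and 0.042 centred by length. For other mitochondrial assembly it was 0.0097 with size factors and 0.048 centred by length, and for cluster-carrying proteins 0.014 centred by length. With a library left out, the medians ran from 0.0019 to 0.054 (other mitochondrial assembly) and from -0.015 to 0.089 (cluster-carrying proteins). They ran from 0.051 to 0.057 for iron handling and from -0.037 to 0.062 for the cytosolic list. Such fits assume that the lone library of a genotype varies like the others, and *Lyrm4*, *Iba57* and *Bola3* have no value among genes of at least 1 FPKM. The cause of these moves was not tested beyond the construction of each alternative. At most 62 fragments per library are estimated for *Iba57*, 49 for *Lyrm4* and 38 for *Bola3*, and with 2 libraries per genotype small changes cannot be told from none.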
